A study of Mus musculus with 4 samples.

Results

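The genes described here are 8 markers of the primed epiblast, the pluripotent cells of the embryo after implantation: Fgf5, Otx2, Pou3f1, Lef1, Sox3, Zic2, Zic5 and Foxd3. They were chosen by gene symbol, and all 8 are among the 26130 genes of both deposited tables. RNA-seq was done on mouse embryonic stem cells from 2 lines, each as wild type and as Zfp57-/-, with 1 library per line and genotype. The E14 line is of strain 129P2/OlaHsd, and strain JF1/B6 gave the JB1 line. All 4 cultures were grown without feeder cells in serum with leukemia inhibitory factor (LIF), a medium that holds back exit from the naive state. ZFP57, a zinc finger factor, keeps DNA methylation in place at imprinted loci. Which part of Zfp57 is deleted, and whether a knockout line is 1 clone, is not stated in the labels.

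Embryonic stem cells in LIF stand close to the naive epiblast before implantation. When they leave that state, they switch on the transcription factors OTX2 and POU3F1 (also called OCT6), the growth factor FGF5 and the neural and epiblast regulators of the ZIC, SOX and forkhead families. FGF signalling through ERK pushes cells out of the naive state, and Wnt signalling through beta-catenin acts on the TCF and LEF1 proteins at their target genes.

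The deposited values are log2 RPM, where RPM is a gene's reads per 1000000 reads of the library, with no correction for length, so a level is compared between libraries and not between genes. The listed genes held 26801865 to 66849394 reads per library, and a count of 0 reads allowed at most 0.0309 to 0.0594 RPM. Intervals given with levels and ratios are exact 95% intervals on whole reads recovered from the values. They cover counting error only, and nothing measures the spread between cultures of 1 line. The pluripotency genes Pou5f1 (442 to 939.9 RPM) and Sox2 (153.6 to 625 RPM) were high in all 4 libraries. The targeted gene, Zfp57, was 2.605-fold lower in the E14 knockout (135 against 51.8 RPM, wild type first) and 18.5-fold lower in the JB1 knockout (796 against 42.9 RPM). Both knockout libraries thus still held Zfp57 reads, and both were lower than their wild type.

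Promoter sequences were at hand for 5 of the 8 genes, from RefSeq (GRCm38.p6), each with 250 bases before and 50 after a transcription start. The 4 below belong to the genes with the widest differences in JB1 among those 5, which were 3 genes higher in the knockout library and 1 lower. They run 5′ to 3′ on the strand of the gene, and capitals mark CpG dinucleotides, the sites of DNA methylation. Fgf5 lies at chr5:98253934-98254233 (plus strand), Lef1 at chr3:131110047-131110346 (plus strand, the first listed of 4 starts), Zic5 at chr14:122465609-122465908 (minus strand) and Foxd3 at chr4:99656049-99656348 (plus strand).
Fgf5: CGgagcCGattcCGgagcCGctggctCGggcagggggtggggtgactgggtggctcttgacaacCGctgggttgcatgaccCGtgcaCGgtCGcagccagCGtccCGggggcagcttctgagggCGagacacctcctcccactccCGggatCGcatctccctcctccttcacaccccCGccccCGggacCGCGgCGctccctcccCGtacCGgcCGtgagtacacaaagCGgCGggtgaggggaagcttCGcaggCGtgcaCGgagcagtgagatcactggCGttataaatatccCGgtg
Lef1: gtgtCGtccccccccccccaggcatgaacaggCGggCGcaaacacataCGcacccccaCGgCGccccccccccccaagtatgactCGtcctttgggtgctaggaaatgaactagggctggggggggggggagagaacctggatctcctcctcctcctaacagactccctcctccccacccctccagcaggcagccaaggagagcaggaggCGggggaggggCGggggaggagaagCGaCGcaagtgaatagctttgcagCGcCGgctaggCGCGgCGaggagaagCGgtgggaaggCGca
Zic5: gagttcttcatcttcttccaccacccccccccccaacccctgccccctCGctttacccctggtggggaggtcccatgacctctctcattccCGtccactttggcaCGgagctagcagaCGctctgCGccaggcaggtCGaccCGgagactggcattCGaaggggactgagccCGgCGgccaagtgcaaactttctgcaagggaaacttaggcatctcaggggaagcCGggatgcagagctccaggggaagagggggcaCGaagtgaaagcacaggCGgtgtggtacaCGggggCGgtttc
Foxd3: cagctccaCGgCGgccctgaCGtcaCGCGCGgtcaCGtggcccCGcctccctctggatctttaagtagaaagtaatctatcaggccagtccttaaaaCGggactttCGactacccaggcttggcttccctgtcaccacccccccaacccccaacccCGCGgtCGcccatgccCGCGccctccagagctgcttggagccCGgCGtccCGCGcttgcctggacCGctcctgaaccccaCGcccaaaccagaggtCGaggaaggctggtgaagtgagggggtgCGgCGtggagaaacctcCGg

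These windows held 29 CpG in Fgf5, 18 in Lef1, 15 in Zic5 and 25 in Foxd3, against a median of 7 over 32851 promoter windows of the same length. The Otx2 window, at the first listed of 4 starts, had 6, and CpG at the other starts are not reported here. Fewer CpG than in the Fgf5 window were counted in 87.1% of all windows, and fewer than in the Otx2 window in 43.6%. The hexamer TGCCGC, the recognition sequence of ZFP57, was searched on both strands. It was in 11.6% of all windows and in none of the 11 windows that RefSeq lists for these 5 genes. The octamer ATGCAAAT of POU factors (1.74% of all windows) and CTTTGAT of TCF and LEF factors (3.73%) were also in none of the 11, and TAATCC of OTX factors (7.06%) was in 1. Matches were counted by letters alone, and none of these motifs contains another.

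Across the 8 genes no common direction was seen. In E14, 5 of 8 were higher in the knockout library and 3 lower, and in JB1 also 5 were higher and 3 lower, but Foxd3 and Fgf5 lay on opposite sides in the lines. These counts take signs alone. The differences of Fgf5, Otx2, Sox3, Lef1 and Zic5 in E14, and of Sox3 in JB1, were within counting error. Beyond it, Pou3f1, Zic2 and Foxd3 were higher in E14, and Otx2 and Foxd3 were lower in JB1, where the others were higher. Differences below are log2((knockout RPM + 1)/(wild-type RPM + 1)), a scale that understates the change of genes near 1 RPM. With 1 library per group no test within a line was possible, and a gene counts here if its difference was 2-fold or more on that scale and it reached 1 RPM in either library of the line. By this count 0 of the 6 genes at 1 RPM in E14 were at least 2-fold higher, against 0.953% of all 12276 genes, and 0 were at least 2-fold lower, against 0.269%. In JB1, 0 of 7 were at least 2-fold higher, against 2.5% of 13132 genes, and 0 at least 2-fold lower, against 1.58%. Sox3 was below 1 RPM in every library and Fgf5 in both E14 libraries. Fgf5 in JB1 and Pou3f1 in E14 reached 1 RPM only through the knockout library, so their direction there was partly set by the filter. Over all 8 genes with no filter the median was 0.17 in E14 and 0.44 in JB1, beside 0.02 and 0.01 over all genes at 1 RPM, of which 53.5% were higher in the E14 knockout and 51.5% in the JB1 knockout.

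**Figure D1:**
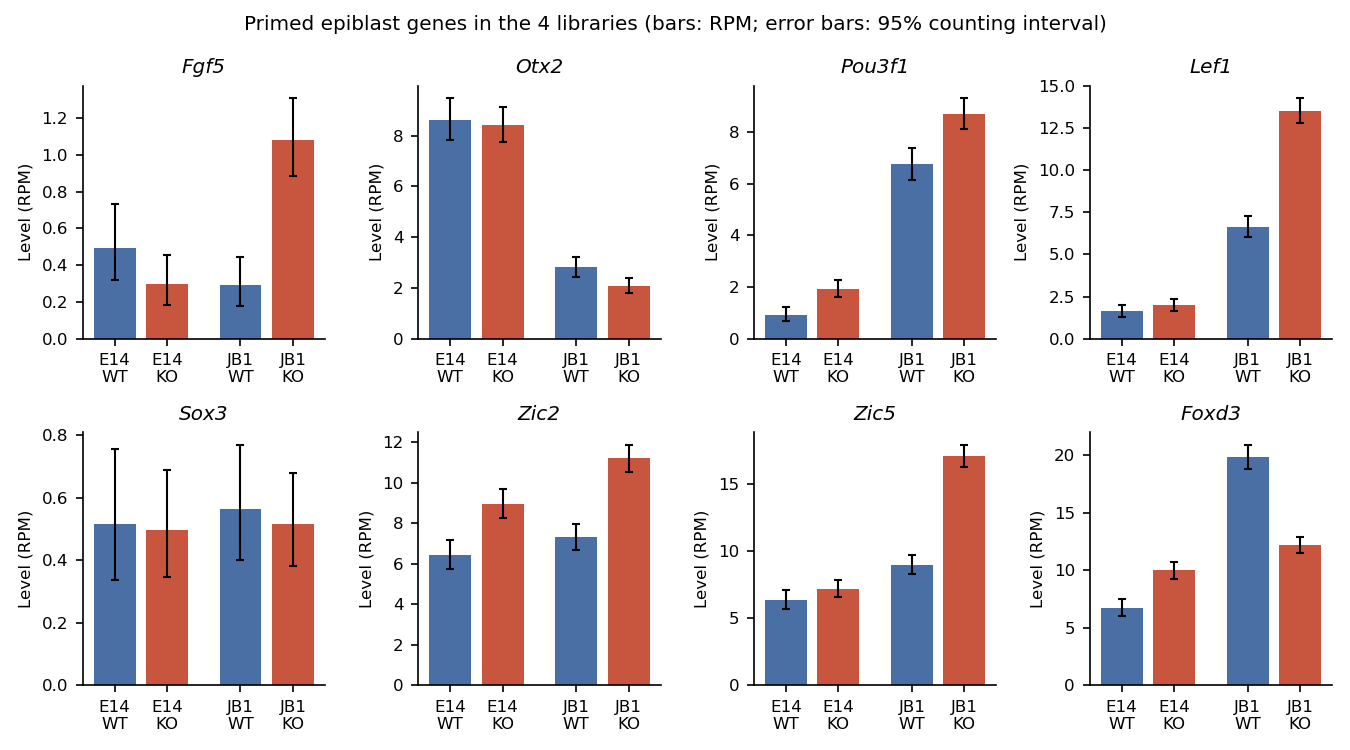
Level in RPM (vertical axis, from 0) of the 8 primed epiblast genes in the 4 libraries, wild type (WT, blue) and knockout (KO, red) of E14 and JB1, with 95% counting intervals as error bars. In JB1 the knockout intervals of Fgf5, Pou3f1, Lef1, Zic2 and Zic5 lie above and those of Otx2 and Foxd3 below the wild type. In E14 those of Pou3f1, Zic2 and Foxd3 lie above, and the intervals of Sox3 overlap in all 4 libraries. The intervals hold counting error only, and how many of all genes separate in this way was not counted.

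Fgf5 (chromosome 5, 98683203 to 98706049, plus strand, mm9) encodes the secreted growth factor by which the primed epiblast is most often recognised. In E14 it had 0.495 RPM (25 reads) without and 0.297 RPM (21 reads) with the knockout, and in JB1 the pair stood at 0.289 RPM (20 reads) and 1.08 RPM (105 reads). The JB1 knockout was the highest library, and the counting intervals of the other 3 overlapped. In JB1 the knockout was 3.75-fold higher (95% interval 2.31 to 6.38), with a log2(RPM + 1) difference of 0.69. The E14 ratio of knockout to wild type was 0.600 (95% interval 0.319 to 1.12), so no difference was detectable in E14 at this depth. FGF5 acts through FGF receptors, and all 4 receptor genes were higher in the JB1 knockout library, beside 51.5% of all genes at 1 RPM. By the count above, 2 of them were at least 2-fold higher, beside 2.5% of all genes. In JB1, Fgfr1 had 59.3 against 63.4 RPM and Fgfr2 11.4 against 17.2 RPM. Fgfr3 was 2.94-fold higher there (4.65 against 13.7 RPM) and Fgfr4 2.91-fold (1.84 against 5.34 RPM). In E14, 3 of the 4 receptor genes were higher and none was 2-fold apart on the log2(RPM + 1) scale. Fgfr1 had 25.0 and 28.9 RPM there, Fgfr3 1.62 and 2.12 RPM and Fgfr4 1.33 and 2.04 RPM, while Fgfr2 was lower, at 10.7 and 7.63 RPM.

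Lef1 (chromosome 3, 130813389 to 130927274, plus strand) encodes a DNA-binding partner of beta-catenin. Wild-type E14 had 1.62 RPM and its knockout 1.97, while wild-type JB1 had 6.66 RPM and its knockout 13.6. The JB1 pair was 2.04-fold apart (95% interval 1.83 to 2.27), the knockout higher, with a difference of 0.93 on the log2(RPM + 1) scale. In E14 the ratio was 1.21 (95% interval 0.915 to 1.61) and the 2 libraries overlapped. Both JB1 libraries lay above both E14 libraries. The 2 tables were deposited separately, and the levels of different lines are set side by side here without a test.

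The close relatives of Lef1, named here after their values were seen, differed less in JB1. Wild type first, Tcf7 had 13.9 and 18.1 RPM there and Tcf7l2 had 13.4 and 17.4 RPM. Tcf7l1, which acts as a repressor in stem cells, had 52.99 and 40.3 RPM, the knockout lower. In E14 the same 3 genes differed by 0.08, −0.02 and −0.19 on the log2(RPM + 1) scale. Of 13 target genes of Wnt and beta-catenin signalling, 6 were under 1 RPM in every library. With no filter, 12 of the 13 were higher in the JB1 knockout library and 1 was lower, with a median of 0.32. At 1 RPM, 6 of 7 were higher in JB1, beside 51.5% of all genes. In E14, 6 were higher and 6 lower with no filter, with a median of 0.00. At 1 RPM, 3 of 5 were higher in E14, beside 53.5% of all genes. On the log2(RPM + 1) scale Cdx1 was the target at least 2-fold higher in JB1, beside 2.5% of all genes. Cdx1 and Notum reached 1 RPM in JB1 only in the knockout. Cdx1, a homeobox gene, had 0.578 RPM in the JB1 wild type against 3.99 with the knockout, and 0.654 against 0.269 RPM in E14. Axin2, a feedback inhibitor of the pathway, had 2.80 against 5.34 RPM in JB1 and 2.95 against 2.82 RPM in E14. Notum, a secreted inhibitor of Wnt ligands, had 0.304 against 1.40 RPM in JB1, a 4.62-fold ratio of RPM (95% interval 2.905 to 7.71), and 2.42 against 3.23 RPM in E14.

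Zic2 (chromosome 14, 122874604 to 122879074, plus strand) and Zic5 (122856017 to 122864899, minus strand) encode zinc finger transcription factors and lie back to back, 9.70 kb apart. For Zic2, wild type and knockout stood at 6.44 and 8.95 RPM for E14, and at 7.30 and 11.2 RPM for JB1. Both knockout libraries lay above both wild-type libraries, by 1.39-fold in E14 (95% interval 1.22 to 1.60) and 1.54-fold in JB1 (95% interval 1.38 to 1.71). Zic2 was the gene of the 8 whose differences in the lines were closest among those higher in both, 0.42 in E14 and 0.56 in JB1.

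For Zic5, wild type and knockout stood at 6.32 and 7.14 RPM for E14, and at 8.95 and 17.1 RPM for JB1. The JB1 knockout stood apart at 1.91-fold over its wild type (95% interval 1.74 to 2.10), and the E14 ratio was 1.13 (95% interval 0.981 to 1.31). The genes next to the pair were not higher in both lines. Clybl, the nearest measured gene on the Zic5 side, had 8.66 against 11.7 RPM in E14 and 12.3 against 9.85 RPM in JB1, wild type first. Pcca, on the Zic2 side, had 8.88 against 6.47 RPM in E14 and 13.4 against 13.95 RPM in JB1. Their relative Zic1 stayed under 1 RPM in every library. Reads shared between near-identical stretches of ZIC genes could not be told apart in these values.

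Pou3f1 (chromosome 4, 124334896 to 124337899, plus strand) encodes a POU factor of the early primed state. The E14 wild type had 0.911 RPM (46 reads) against 1.91 RPM (135 reads) with the knockout, and JB1 had 6.75 against 8.71 RPM. Each knockout library was above its own wild type, 2.10-fold in E14 (95% interval 1.49 to 2.996) and 1.29-fold in JB1 (95% interval 1.15 to 1.45). The gap between the lines was wider than that between the genotypes, with both JB1 libraries above both E14 libraries. None of the 16 genes measured within 1 Mb in E14 was higher by as much as Pou3f1, whose difference was 0.61 against a neighbour median of 0.02. In JB1, 2 of 18 neighbours exceeded its 0.33.

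Foxd3 (chromosome 4, 99322990 to 99325362, plus strand) encodes a forkhead factor that acts in pluripotent cells and neural crest. The wild-type and knockout libraries had 6.70 and 9.97 RPM for E14, and 19.9 and 12.2 RPM for JB1. The 2 lines went in opposite directions, with counting intervals that did not overlap within either line. In E14 the knockout was 1.49-fold higher (95% interval 1.31 to 1.70), and in JB1 it was 1.63-fold lower (95% interval 1.504 to 1.76). Whether the lines differ beyond the spread between cultures could not be tested. The nearest measured neighbours did not follow it in JB1, where Alg6 had 21.1 against 20.6 RPM and Itgb3bp 7.11 against 7.84 RPM, and 8 of 9 neighbours within 1 Mb had a higher difference than its −0.66. Among its relatives, Foxd1 had 19.6 RPM in the JB1 wild type against 1.32 with the knockout and was under 1 RPM in both E14 libraries, and Foxd2 and Foxd4 were under 1 RPM throughout.

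Sox3 (chromosome X, 58144545 to 58146605, minus strand) encodes a SOXB1 factor of the epiblast and neural plate. Its wild-type and knockout levels were 0.515 and 0.495 RPM for E14, and 0.564 and 0.515 RPM for JB1, on 26 to 50 reads. The counting intervals of all 4 libraries overlapped. The ratio of knockout to wild type was 0.961 in E14 (95% interval 0.562 to 1.66) and 0.915 in JB1 (95% interval 0.590 to 1.43), so a change inside those bounds was not detectable at this depth. Its neighbour Mcf2 was lower in the JB1 knockout library, with a log2(RPM + 1) difference of −0.58.

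**Figure D2:**
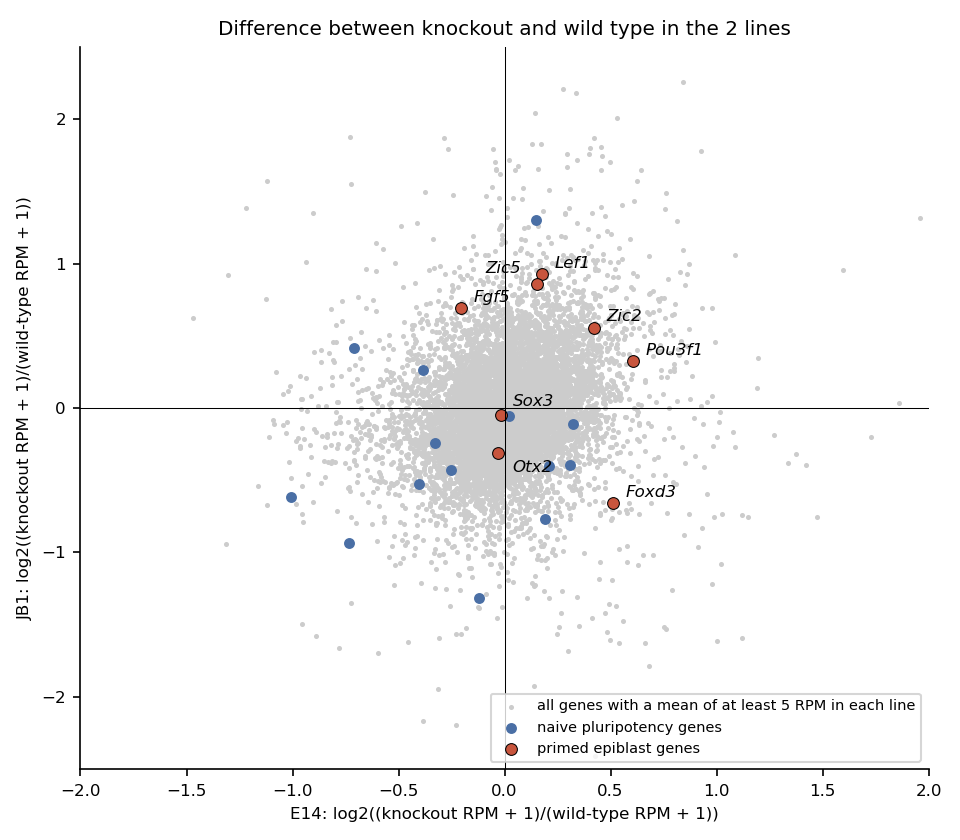
Difference between knockout and wild type on the log2(RPM + 1) scale in E14 (horizontal axis) and JB1 (vertical axis) for the 8 primed epiblast genes (red), naive pluripotency genes (blue) and 8659 genes averaging 5 RPM or more in each line (grey, 10 of them outside the axes). Lef1, Zic5, Zic2 and Pou3f1 lie at the upper right, Foxd3 at the lower right, Fgf5 at the upper left, and Sox3 and Otx2 near the vertical axis.

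Otx2 (chromosome 14, 49277354 to 49287319, minus strand) encodes the homeobox factor that directs the move from the naive to the primed state. The E14 pair, wild type first, had 8.64 and 8.42 RPM, and the JB1 pair 2.80 and 2.06 RPM. The E14 libraries overlapped, at a ratio of 0.975 (95% interval 0.860 to 1.11). In JB1 the knockout was 1.36-fold lower (95% interval 1.11 to 1.67). Otx2 was the gene of the 8 with both E14 libraries above both JB1 libraries. GENCODE M21 (GRCm38) places an antisense transcript, Otx2os1, across the Otx2 locus, and the sources used here do not say whether strand was used in counting, so its reads are uncertain to that extent.

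The gene lies in a stretch of chromosome 14, from 41 to 77 Mb, whose genes were mostly lower in the E14 knockout library, a region that was picked from these same data. With Otx2 left out, 146 of the 153 genes averaging 5 RPM or more in E14 were lower in that library, with a median of −0.70, against 0.02 for 8753 genes elsewhere. Otx2 did not share this difference. Its own value of −0.03 was exceeded by 9 of the 153 genes (5.88%), and it lay 0.67 above the median of the region. The 9 genes were Loxl2, Zfp219, Nefl, Rps2-ps6, Ephx2, Gm6984, Mrpl52, Hnrnpc and Lgals3. The 5 measured genes within 1 Mb of Otx2 were all lower in E14, with a median of −0.70, among them Exoc5, an exocyst subunit (46.4 against 27.5 RPM), and Mudeng (14.9 against 8.57 RPM). In JB1 the region's other 206 genes had a median of −0.02, and Otx2, at −0.31, was exceeded by 82.04% of them. Within 1 Mb, 6 of 7 neighbours were lower in JB1 too, with a median of −0.40.

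**Figure D3:**
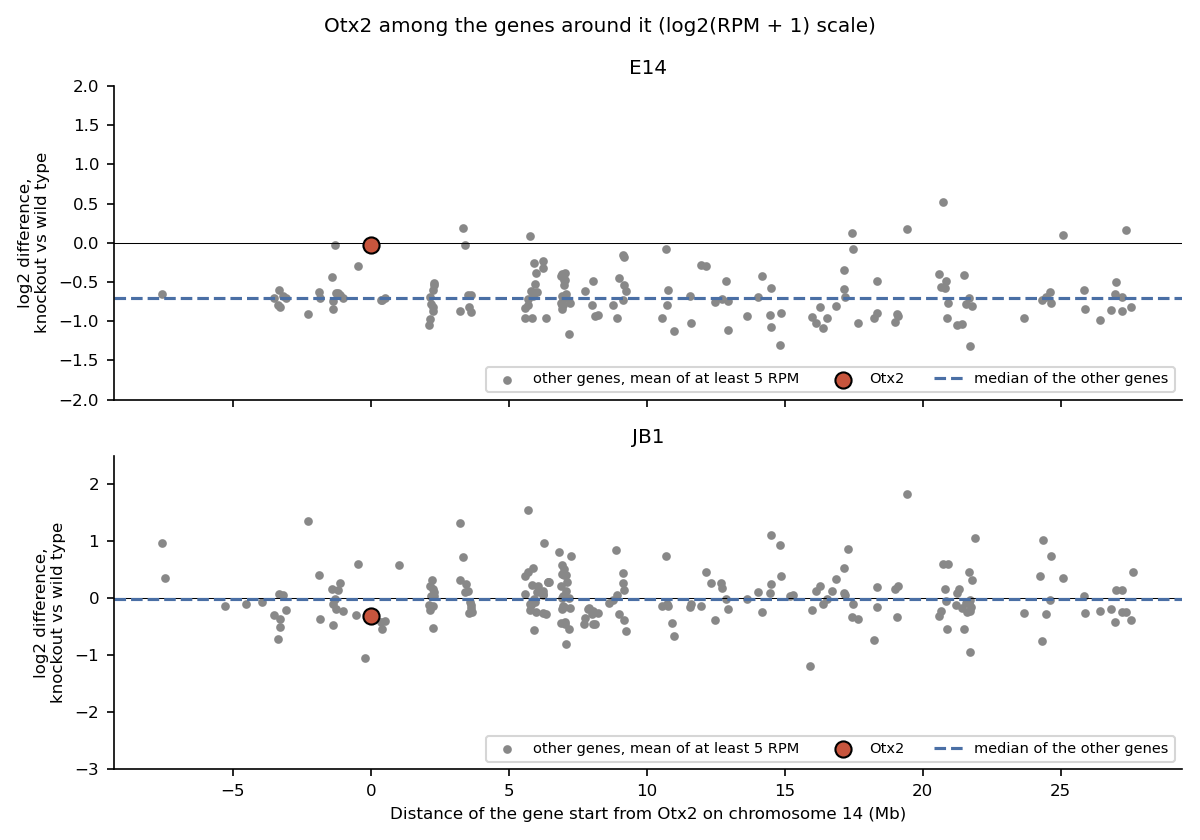
Difference between knockout and wild type on the log2(RPM + 1) scale (vertical axis) against distance from Otx2 in Mb (horizontal axis) for genes of the chromosome 14 region averaging 5 RPM or more, in E14 (top) and JB1 (bottom). In E14 Otx2 (red) lies at −0.03 while the dashed median of the other genes is at −0.70, and in JB1 that median is −0.02.

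**Figure D4:**
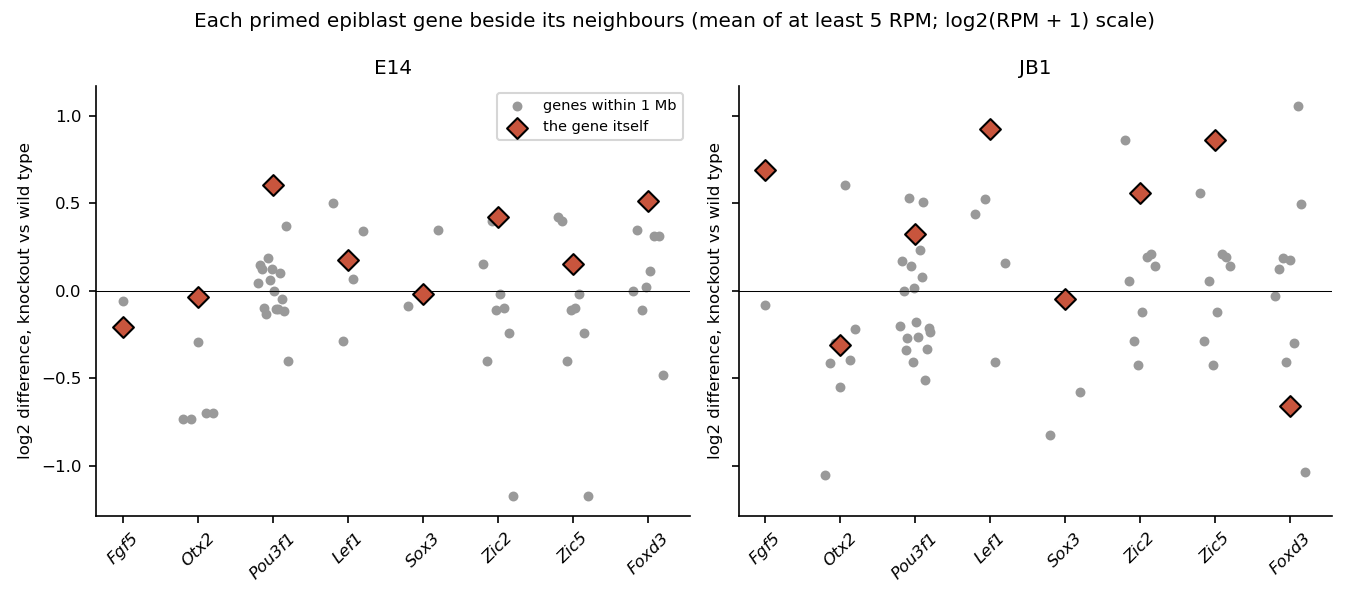
Difference on the log2(RPM + 1) scale (vertical axis) of each primed epiblast gene (red diamonds) and of the genes within 1 Mb of it that averaged 5 RPM or more (grey points), in E14 (left) and JB1 (right). Otx2, Pou3f1, Zic2 and Foxd3 lie above all their neighbours in E14, and Fgf5, Lef1, Sox3 and Zic5 do so in JB1.

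A genotype effect common to E14 and JB1 was tested for with limma, which treats the lines as the 2 replicates of the difference and leaves 1 residual degree of freedom per gene. Of the 8 genes, 6 had the mean of 1 RPM needed to enter, and Fgf5 and Sox3 did not. None of the 6 passed a Benjamini-Hochberg adjusted p of 0.05, and none of all 12644 genes did (0%). Without adjustment, 1005 genes had p under 0.05 (7.95%), of which 1 was among the 6. That gene was Zic2, with a shared effect of 0.49 (SE 0.19, limma adjusted p = 0.626, unadjusted p = 0.0378), higher in the knockout of both lines. The effect of Lef1 was 0.55 (SE 0.25, limma adjusted p = 0.632) and that of Zic5 was 0.51 (SE 0.23, limma adjusted p = 0.632). Both were higher in the JB1 knockout, with E14 ratios within counting error. Pou3f1, higher in the knockout of both lines, had an effect of 0.47 (SE 0.21, limma adjusted p = 0.632). Otx2, lower in the JB1 knockout and within counting error in E14, had an effect of −0.17 (SE 0.21, limma adjusted p = 0.818). For Foxd3 the opposite differences of the lines cancelled to −0.07 (SE 0.29, adjusted p = 0.957). With so few libraries, a p that misses the threshold does not show that these genes were alike in both genotypes.

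Other genes of the primed and formative states, from a list of 17, were higher in the JB1 knockout library in 8 of the 15 cases at 1 RPM (53.3%, beside 51.5% of all genes). Of these, 4 were at least 2-fold higher on the log2(RPM + 1) scale, beside 2.5% of all genes. Wnt8a, counted as higher, reached 1 RPM in JB1 only in the knockout (0.621 and 1.39 RPM). With no filter, 10 of 17 were higher, and the median was 0.14. The 4 were Dnmt3a and Dnmt3b, which set new DNA methylation, Utf1, a chromatin protein of pluripotent cells, and Tcf15, a helix-loop-helix factor that primes epiblast cells. Tcf15 was 3.795-fold higher in the JB1 knockout (2.31 against 8.77 RPM) and had 3.59 against 3.13 RPM in E14. Dnmt3b was higher in the knockout of both lines, with 47.7 against 67.2 RPM in E14 and 61.4 against 145 RPM in JB1. In E14, 11 of 17 were higher with no filter, beside 53.5% of all genes at 1 RPM. The median was 0.14, and none was 2-fold apart on the log2(RPM + 1) scale. The widest E14 differences were those of Sox4 (8.70 and 15.7 RPM), Sox11 (0.594 and 1.53 RPM, a 2.57-fold ratio of RPM), Dnmt3b and, in the other direction, Lin28b (20.2 and 14.5 RPM). Sox11 was also higher in the JB1 knockout, at 1.46 and 3.26 RPM.

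Naive pluripotency genes, which are active before the primed ones, were lower in 11 of 14 cases in the JB1 knockout library, with a median of −0.40. Of all genes at 1 RPM in JB1, 6366 of 13132 were lower. In E14, 8 of 14 were lower, with a median of −0.19, beside 5705 of all 12276 genes. Klf4 and Prdm14 were the ones at least 2-fold lower, Klf4 in JB1 (beside 1.58% of all genes) and Prdm14 in E14 (beside 0.269%). Gbx2, a homeobox gene of the naive list, went the other way in JB1, at 7.24 and 19.3 RPM, 2.67-fold higher. Tfcp2l1, a factor of the naive network, had 504 against 308 RPM in E14 and 727 against 969 RPM in JB1. None of the list genes that were tested across both lines passed the adjusted threshold in limma, where the lowest adjusted p of any gene was 0.623.

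**Figure D5:**
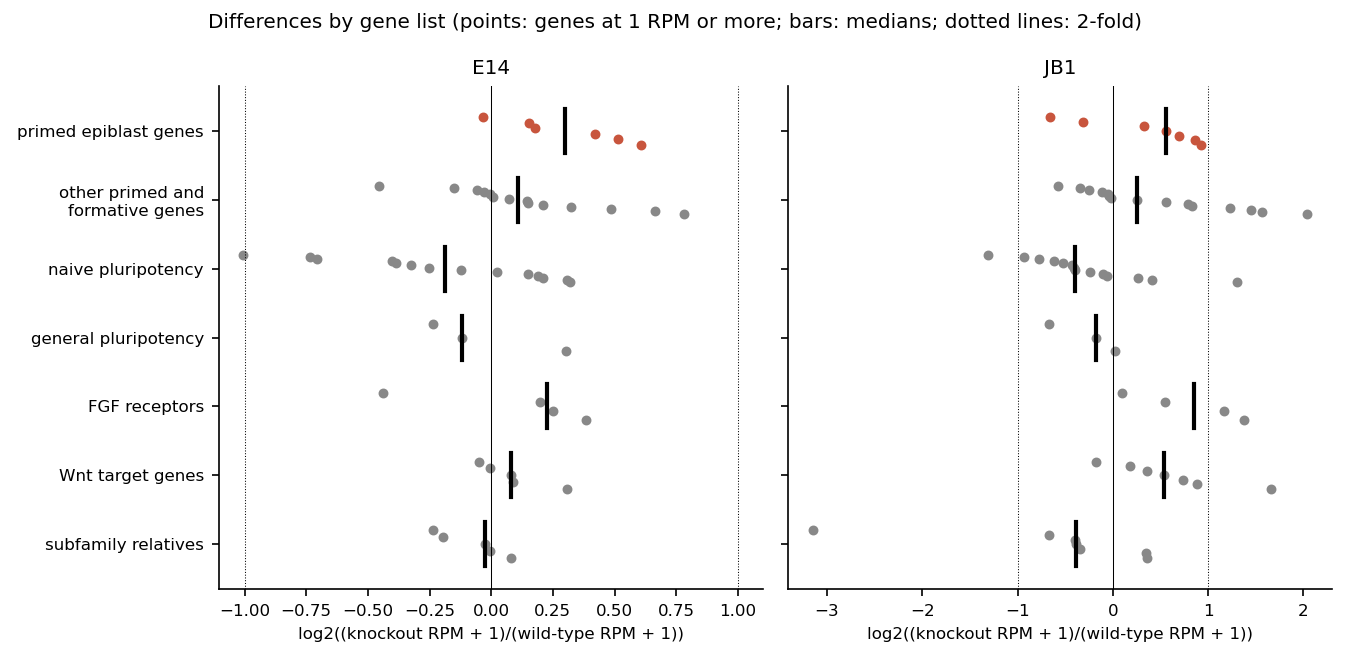
Difference between knockout and wild type on the log2(RPM + 1) scale (horizontal axis) for genes at 1 RPM or more, by list, in E14 (left) and JB1 (right), with medians as bars and 2-fold as dotted lines. The primed epiblast genes (red), among them Pou3f1 in E14 and Fgf5 in JB1 that reached 1 RPM only in the knockout, have no point beyond 2-fold on this scale, and the naive genes have medians of −0.19 and −0.40.

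Several of the 8 genes are also expressed outside the epiblast, so markers of other cell types were summed in the same libraries. In bulk RNA a change in the number of cells of a type and a change of RNA per cell cannot be told apart. The 9 neuroectoderm markers summed to 46.1 (wild type) and 58.5 RPM for E14, and to 48.4 and 43.4 RPM for JB1. Tubb3 made up most of the E14 sums, at 33.1 and 45.9 RPM. In JB1 the sums held Tubb3 (17.3 and 20.3 RPM) and Olig2, a neural progenitor factor at 23.8 and 16.5 RPM there and at most 0.0198 RPM in E14. The neural genes Hes5 and Neurog2 were at 0.0707 RPM or less in all 4 libraries, with Neurog2 at 0 in both wild types. The 6 neural crest markers summed to 3.01 and 2.72 RPM for E14, and to 5.22 and 5.41 RPM for JB1. The 8 markers of primitive streak and mesoderm summed to 2.10 and 2.67 RPM for E14, and to 5.61 and 6.71 RPM for JB1. Among them, T had 0.0198 to 0.227 RPM. Primitive endoderm markers (9 genes) summed to 126.5 and 133 RPM for E14, and to 120.4 and 146 RPM for JB1, mostly from Lama1 and, in JB1, Dab2. With no filter, 8 of the 9 were higher in the JB1 knockout library and Gata4 was lower (6.10 and 2.97 RPM). In E14, 4 were higher and 5 lower, among them Gata4 (2.20 and 1.15 RPM), which lies in the chromosome 14 region described above. In JB1 the 6 trophoblast markers summed to 11.7 RPM without and 21.7 RPM with the knockout, with Krt8 at 5.79 and 13.96 RPM. The 7 fibroblast markers summed to 9.05 and 19.2 RPM in JB1, with Pdgfrb at 1.43 and 5.73 RPM and Thy1 at 3.61 and 7.95 RPM, while Dcn had 0 reads in all 4 libraries and Lum at most 0.0206 RPM. In E14 the trophoblast sums were 6.68 and 8.50 RPM and the fibroblast sums 2.36 and 2.815 RPM, wild type first. The primitive endoderm, trophoblast and fibroblast sums were thus higher in the knockout library of both lines. Their part in the JB1 differences of Fgf5, Lef1 and Zic5 was not tested.

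For each of the 8 genes, the genes with the most similar pair of differences were sought among 8656 genes averaging 5 RPM or more in each line, by Euclidean distance over the E14 and the JB1 difference. Closest to Lef1 were Camk1d, a calmodulin-dependent kinase (distance 0.00194, 17.4 against 19.8 RPM for E14, 11.1 against 21.9 RPM for JB1), Htra1 and Rcc1. Closest to Zic2 were Tomm7, Tnrc18 and Mpi, at distances of 0.0168 to 0.0200, and closest to Zic5 were Bzw2, Nit2 and Tmem231. Pou3f1 had Obfc2a, Pik3r3 and Pdap1, and Fgf5 had Glo1, Cpt1a and Ppfibp2. The opposite differences of Foxd3 were met most closely by Asah1 (125 against 178 RPM for E14, 245 against 150 RPM for JB1), Wwtr1 and Gm129, at distances of 0.0415 to 0.0592. Otx2 had Ptp4a1, Pip4k2c and Acvr1b, and Sox3 had Dnajc10, Ndufaf1 and Solh. Likeness over 2 differences from 4 libraries is a description.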

How the data were processed

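RNA-seq libraries of 4 mouse embryonic stem cell cultures were analysed, 1 per line (E14, JB1) and genotype, grouped by their titles. Poly(A) RNA was sequenced from a stranded kit, per the labels' protocols. The submitters' processing notes name TopHat2 2.0.8b, CASAVA 1.8.2, cutadapt and the build mm9. Annotation, counting tool, strand setting and scaling total: not given in the sources used here. Values were deposited by the authors as log2 RPM, 1 table per line. With a library's lowest value taken as 0.9 read, 100% of the values above it were whole reads within a relative 0.0001, so reads were recovered, with 0 put for the lowest value. The listed genes held 53.1% to 68.9% of the scaling totals recovered this way.

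RPM differences used a pseudocount of 1. Ratios have exact conditional binomial (Clopper-Pearson) intervals, levels exact Poisson intervals (SciPy 1.17.1). The shared effect was fitted across all genes in R 4.3.3 (limma 3.58.1), on log2(RPM + 1) with line and genotype as terms and a mean-variance trend, for genes averaging 1 RPM or more, and was checked on simulated data. The labels name no separate cultures, so the 2 lines are the only replication. Count models were not run on the recovered reads. The members and lists were chosen with earlier results of these data known. List genes absent by symbol were sought by older RefSeq symbols (Tcfcp2l1 for Tfcp2l1, Tcfap2a for Tfap2a), and Sox1 was not analysed here. Named were all 8 genes, up to 4 genes per list and line with the widest differences, the 3 most similar genes of each member and up to 3 nearest neighbours, beside defining markers and close relatives; some of these genes are not reported here. Alternatives were pseudocounts of 0.5 and 5, filters of 5 RPM and none, other scalings and no trend. RefSeq promoter windows are on GRCm38.p6, and all gene positions are those of the tables (mm9).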

Additional observations from a re-analysis of the deposited data

Results flagged for a closer look

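Named genes whose difference went one way in E14 and the other way in JB1 were listed, with genes outside the 8 listed only where they reached 1 RPM in both lines, both counting intervals lay off 1 and the lines were at least 2-fold apart on the log2(RPM + 1) scale. With 1 library per group, none of these differences between the lines was tested. Foxd3 differed by 0.51 in E14 and −0.66 in JB1, so JB1 minus E14 was −1.17. Fgf5 differed by −0.21 in E14, with a counting interval that held 0 (−0.44 to 0.04), and by 0.69 in JB1, a gap of 0.90. Tfcp2l1 differed by −0.71 in E14 and 0.41 in JB1, a gap of 1.12. Cdx1, under 1 RPM in both E14 libraries and so outside this rule, differed by −0.38 in E14 and 1.66 in JB1, a gap of 2.04.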

How the results depend on the processing

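Scaling to the reads of the listed genes or by the median ratio within a line moved no difference of the 8 genes beyond its counting interval. A pseudocount of 5, which damps low genes, moved Pou3f1 in E14 to 0.23 and, in JB1, Fgf5 to 0.20, Lef1 to 0.67, Zic2 to 0.40, Zic5 to 0.66, Foxd3 to −0.53 and the median of the genes at 1 RPM to 0.22. A pseudocount of 0.5 moved Fgf5 in JB1 to 1.004, beyond 2-fold, and no other gene of the 8 in either line. The numbers of all genes at least 2-fold higher and lower in E14 were 117 and 33, and became 183 and 50 with a pseudocount of 0.5 and 44 and 6 with 5. In JB1, 328 and 208 became 111 and 83 with 5. Set against the median of its chromosome 14 region, the Otx2 difference in E14 of −0.03 became 0.67. That region was picked from these same data for its lower genes, and Otx2 itself had 8.64 and 8.42 RPM in E14. Leaving Otx2 out, an alternative chosen after seeing the data, gave medians at 1 RPM of 0.42 in E14 and 0.62 in JB1. The median of the genes at 1 RPM in E14, 0.30, became 0.16 with a pseudocount of 5 and 0.17 with no filter, and that in JB1, 0.56, became 0.44 with no filter. The limma fit called 0 genes under all 6 alternatives. No paired analysis was possible because the labels give no replicate numbers, other than the limma fit itself, whose line term pairs the libraries by line. Leaving out a line left no residual degrees of freedom. Fgf5 and Sox3, with 20 to 105 reads per library, are limited by depth.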
